A study of Mus musculus with 8 samples.

Results

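Proximal tubule cells of the kidney break down amino acids and small organic acids in mitochondria and peroxisomes. The pathways end in carbon for the citric acid cycle and for glucose synthesis, and side branches make creatine, arginine, conjugated acids and inositol products. Several of their enzymes are best known from inherited disorders in which an organic acid builds up in urine. The genes described here encode 37 enzymes or enzyme subunits of this kind, and 36 of them were measured out of 18193 genes on the arrays. The remaining gene, Amt, a subunit of the glycine cleavage system, had no probe set listed under its symbol and is not analysed here. The genes were selected on function and with the ischemic minus normal differences of these same arrays already known, those of Sugct, Nat8 and Keg1 among them. Their differences between the groups are therefore given as a description.

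GFP-positive cells were sorted from kidneys of 6-month-old mice labelled male, C57BL/6 and FSP1-eGFP, in which the FSP1 (S100a4) promoter drives the reporter. The 5 ischemic kidneys had their left renal vessels, artery and vein, closed by a clamp for 45 minutes and were collected on day 3. The 3 normal kidneys came from mice of the same strain, age and labelled sex, and the labels call them both sham and non-ischemic. The series title names fibroblasts in acute kidney injury as its subject, and per the labels a portion of the sorted cells looked like fibroblasts in culture. Both groups carry the reporter, which marks whichever sorted cells use that promoter and not fibroblasts alone. Buprenorphine was given after surgery for pain. In sorted cells measured in bulk, fewer cells of a type and less RNA per cell cannot be told apart. RNA was amplified before labelling, and nothing in the labels separates biological from technical spread beyond the separate kidneys.

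Some arrays stood apart from the rest or went against their labels. Xist, which coats an inactive X in female cells, had levels of 11.21 and 9.39 on ischemic 1 and ischemic 2 and 11.01 on normal 1, against 4.49 to 4.96 on the other 5 arrays, although all mice were labelled male. The 3 arrays were not alike in Y-linked genes. On ischemic 2 Kdm5d was at 7.88, Eif2s3y at 7.78 and Uty at 6.73, within the ranges of the 5 arrays of low Xist signal (7.50 to 9.20 for Kdm5d, 7.68 to 8.87 for Eif2s3y and 5.36 to 6.81 for Uty). Ischemic 1 and normal 1 were lower, with Kdm5d at 6.86 and 6.35 and Eif2s3y at 5.84 on both. Ischemic 1 also had the lowest median correlation with the other arrays across genes, 0.753, against 0.850 to 0.913 for the others. S100a4 was at 11.97 ± 0.27 (SD, n = 5) on ischemic and 11.61 ± 0.32 (SD, n = 3) on normal arrays. The Gapdh control probe sets differed, 3′ minus 5′, by 2.42 ± 0.27 (SD, n = 5) on ischemic and 2.23 ± 0.19 (SD, n = 3) on normal arrays (two-sided exact permutation p = 0.321, smallest possible 0.0179). Results below are also given within the 5 arrays of low Xist signal (3 ischemic and 2 normal) and the 3 of high signal (2 ischemic and 1 normal).

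All levels are log2(intensity + 16) after quantile normalization, values of replicates follow the order of their numbers, and differences are ischemic minus normal on that scale with the SE of limma. The scale understates changes of dim genes. Most of the catabolism genes had lower levels in cells from ischemic kidneys. Of 36 genes, 35 had a negative difference, against 45.2% of all genes, and the median difference was −1.52, against 0.041 over all genes. The groups did not overlap in 17 of the 36, all of them lower on the ischemic arrays, against 3.44% of all genes on that side, and in 0 on the higher side, against 1.89% of all genes. No gene passed an adjusted p of 0.05 with limma, of the 36 or of all genes (0%). At an unadjusted p under 0.05, 22 of the 36 were lower, against 5.02% of all genes (913 lower, with 384 higher). Nothing is read from these shares, because the genes were chosen with this comparison known. The adjusted p of the 36 ran from 0.0561 for Sugct to 0.997 for Shmt2. Without normal 3, 113 of all genes and 7 of the 36 passed, and with limma's intensity trend 31 of all genes and 4 of the 36 passed.

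**Figure D1:**
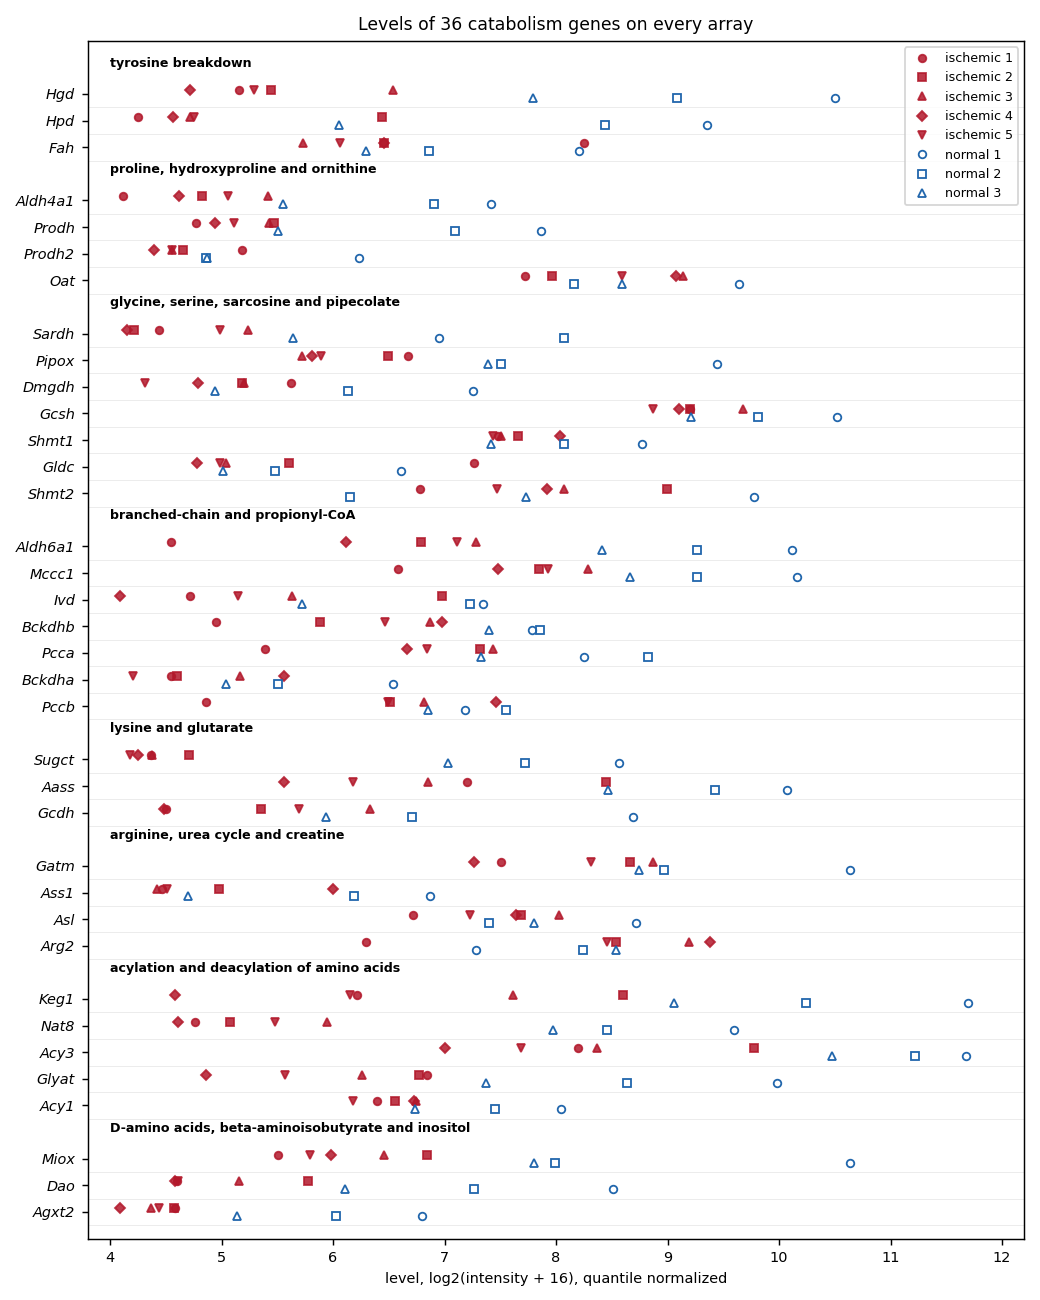
Level of each of the 36 catabolism genes on every array, grouped by pathway, with filled red marks for the 5 ischemic arrays and open blue marks for the 3 normal arrays, marker shape giving the replicate. In 17 genes every ischemic array lies below every normal array, and normal 3 is the lowest normal array in 31 genes.

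Promoter sequences are shown for Nat8, Pipox and Agxt2, whose groups did not overlap, because their promoters held the core motif of HNF4, a transcription factor of proximal tubule and liver. Each sequence runs 5′ to 3′ on the gene's strand from 120 bases before to 30 bases after a RefSeq start site of build GRCm38.p6, and capitals mark motif matches. The Nat8 window is chr6:85832250-85832399 on the minus strand, that of Pipox is chr11:77893843-77893992 on the minus strand, and that of Agxt2 is chr15:10358413-10358562 on the plus strand.
Nat8: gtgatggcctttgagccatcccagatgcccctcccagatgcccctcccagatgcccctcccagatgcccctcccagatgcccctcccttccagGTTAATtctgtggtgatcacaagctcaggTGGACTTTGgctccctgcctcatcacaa
Pipox: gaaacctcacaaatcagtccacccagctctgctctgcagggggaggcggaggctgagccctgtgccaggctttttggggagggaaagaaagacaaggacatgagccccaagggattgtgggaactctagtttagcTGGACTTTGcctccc
Agxt2: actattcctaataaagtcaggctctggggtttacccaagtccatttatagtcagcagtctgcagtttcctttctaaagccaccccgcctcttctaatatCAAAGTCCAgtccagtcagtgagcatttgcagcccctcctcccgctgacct
With the start site counted as base 1, the HNF4 core CAAAGTCCA begins at base 3 in Nat8 and base 16 in Pipox, both as its reverse complement, and at base −21 in Agxt2. The other capitals in Nat8, at base −27, are the hexamer GTTAAT of HNF1, another tubule factor. Motifs were searched on both strands of the 300 bases from 250 before to 50 after each start. A gene was counted if any of its listed starts held the motif. Nat8 and Bckdhb each had another listed start that held no match, and the Nat8 sequence shown is from the start with matches. The HNF4 core was found in 3 of the 34 catabolism genes with a sequence (8.82%), against 150 of 27025 genes (0.555%). GTTAAT was found in 4 of the 34 (11.8%), namely Prodh2, Bckdhb, Nat8 and Miox, against 8.24% of all genes, and on both strands in 2 of the 34 (5.88%), Prodh2 and Bckdhb, against 0.337%. An exact DR1 repeat (AGGTCA, any base, AGGTCA), a motif of nuclear receptors such as PPAR, was found in 0 of the 34 and in 0.0481% of all genes. Looser forms of the repeat were not searched. A match is a description of these letters and shows no binding. The 2 genes with no promoter sequence in the table were Asl and Arg2.

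Hpd, Hgd and Fah, the 3 of the 36 genes that act in tyrosine breakdown, had lower mean levels in cells from ischemic kidneys, with a median difference of −3.00. They lie on the path from hydroxyphenylpyruvate through homogentisate to fumarate and acetoacetate. Of the other genes of that path, Gstz1, the isomerase between Hgd and Fah, differed by −2.16 ± 0.55, and Tat, the aminotransferase at its start, by 0.16 ± 0.23. Tat was dim in both groups, with levels of 4.42 to 5.13 over the 8 arrays. Hgd, homogentisate dioxygenase, had levels of 5.15, 5.44, 6.54, 4.71 and 5.29 on the ischemic arrays, against 10.50, 9.09 and 7.79 on the normal arrays. Every ischemic array lay below every normal array, and the difference of −3.70 ± 0.61 (SE) depends on the scale, since its ischemic intensities were 8.87 to 77.88. With a pseudocount of 64 it was −2.74, with 1 it was −4.36, and with the mean of both probe sets it was −1.92. Hpd, hydroxyphenylpyruvate dioxygenase, which acts one step earlier, had levels of 4.25, 6.44, 4.71, 4.56 and 4.75 on the ischemic arrays, against 9.35, 8.43 and 6.06 on the normal arrays. Here ischemic 2 lay above normal 3, so the groups overlapped despite a difference of −3.00 ± 0.76. Fah, fumarylacetoacetate hydrolase, the last enzyme, had levels of 8.25, 6.46, 5.73, 6.46 and 6.07 on the ischemic arrays, against 8.21, 6.86 and 6.29 on the normal arrays. Its difference of −0.53 ± 0.62 was smaller than the spread within either group, and ischemic 1 was the highest of all 8 arrays. Within the arrays of low Xist signal the differences were −2.92 for Hgd, −2.57 for Hpd and −0.49 for Fah. Another probe set of Hgd, dimmer than the one used, differed by −0.14 ± 0.43.

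The 3 of the 36 genes for lysine and glutarate were all lower, with a median difference of −2.47. Other genes of lysine breakdown differed by −2.53 ± 0.71 for Aadat, −0.36 ± 0.23 for Dhtkd1 and −0.059 ± 0.75 for Aldh7a1. Dhtkd1 had intensities under 16 on every ischemic array. Aldh7a1 was at 9.60 on ischemic 1, against 6.29 to 7.13 on the other ischemic arrays. Sugct, which turns glutarate into glutaryl-CoA, had deposited intensities of 6.81, 9.4, 4.6, 2.8 and 2.07 on the ischemic arrays, against 370.49, 215.97 and 128.17 on the normal arrays. All 5 ischemic intensities lay below 16, the pseudocount, where the size of a change depends most on the scale. On the log2 scale its levels were 4.37, 4.71, 4.38, 4.25 and 4.18 on the ischemic arrays, against 8.57, 7.72 and 7.03 on the normal arrays. The difference was −3.39 ± 0.34 (SE), the lowest adjusted p of the 36 genes (limma adjusted p = 0.0561), and it was −3.10 with low and −4.03 with high Xist signal. With a pseudocount of 64 it was −1.97, and with 1 it was −5.23. Another probe set of Sugct differed by −0.86 ± 0.64. Aass, the bifunctional enzyme that starts lysine breakdown, had levels of 7.20, 8.45, 6.85, 5.56 and 6.18 on the ischemic arrays, against 10.07, 9.43 and 8.46 on the normal arrays. The groups did not overlap, but ischemic 2 and normal 3 nearly met, and the difference was −2.47 ± 0.64. Gcdh, glutaryl-CoA dehydrogenase, averaged 5.27 ± 0.79 (SD, n = 5) on the ischemic and 7.11 ± 1.42 (SD, n = 3) on the normal arrays, a difference of −1.83 ± 0.66 with overlapping groups. The difference of Gcdh was −0.82 among arrays of low and −3.76 among arrays of high Xist signal.

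Enzymes that join or remove acyl groups on amino acids were among those with the largest differences, with a median of −2.92 over 5 genes. Nat8, which acetylates cysteine conjugates to mercapturic acids, had levels of 4.76, 5.08, 5.94, 4.61 and 5.48 on the ischemic arrays, against 9.60, 8.46 and 7.97 on the normal arrays. The groups stood well apart, at −3.50 ± 0.44, and at −2.87 with low and −4.68 with high Xist signal. Its ischemic intensities were 7.44 to 45.53, and the difference was −2.44 with a pseudocount of 64 and −4.32 with 1. Keg1, a kidney gene of the glycine acyltransferase family, had levels of 6.22, 8.60, 7.61, 4.59 and 6.15 on the ischemic arrays, against 11.70, 10.24 and 9.06 on the normal arrays. It varied more than any other of the 36 genes within the ischemic group (SD 1.53, n = 5), from 4.59 on ischemic 4 to 8.60 on ischemic 2, and the difference was −3.70 ± 0.92 with no overlap. Acy3, which removes acetyl groups from aromatic amino acids and mercapturates, had levels of 8.20, 9.77, 8.37, 7.004 and 7.69 on the ischemic arrays, against 11.67, 11.22 and 10.47 on the normal arrays. It was bright in both groups, at the 93.2 percentile of brightness over all genes, and differed by −2.92 ± 0.58 with no overlap. Glyat, glycine acyltransferase of mitochondria, averaged 6.06 ± 0.84 (SD, n = 5) on the ischemic and 8.67 ± 1.31 (SD, n = 3) on the normal arrays, and its 3 probe sets differed by −2.61, −1.59 and −1.96. Glyat and Keg1 lie near each other on chromosome 19 in RefSeq. Acy1, the general aminoacylase, differed by −0.89 ± 0.31, and ischemic 3 lay just above normal 3.

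The 3 genes for D-amino acids, beta-aminoisobutyrate and inositol all had groups that did not overlap, with a median difference of −2.35. Miox, myo-inositol oxygenase, which opens the inositol ring in the kidney, had levels of 5.50, 6.84, 6.46, 5.98 and 5.79 on the ischemic arrays, against 10.63, 7.99 and 7.80 on the normal arrays. Normal 1 stood far above the other normal arrays, and the difference of −2.69 ± 0.64 was −1.82 with low and −4.46 with high Xist signal. Dao, the peroxisomal D-amino acid oxidase, had levels of 4.60, 5.77, 5.16, 4.58 and 4.61 on the ischemic arrays, against 8.51, 7.26 and 6.11 on the normal arrays, a difference of −2.35 ± 0.53. Agxt2, a mitochondrial aminotransferase that handles beta-aminoisobutyrate and dimethylarginines, had levels of 4.58, 4.57, 4.37, 4.09 and 4.44 on the ischemic arrays, against 6.80, 6.03 and 5.14 on the normal arrays. Its difference was −1.58 ± 0.36, and it was dim, with deposited intensities under 16 on every ischemic array.

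**Figure D2:**
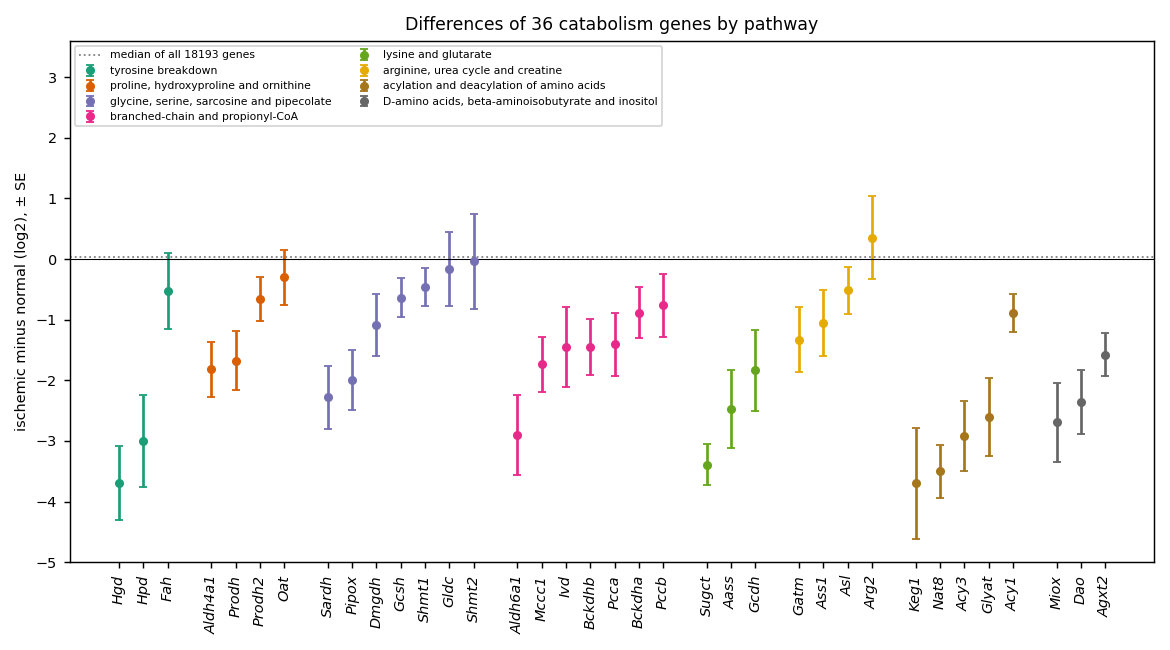
Ischemic minus normal difference of each of the 36 genes, as points with ± SE from limma (5 ischemic and 3 normal arrays), coloured and grouped by pathway, with the median of all genes dotted at 0.041. Differences run from −3.70 for Keg1 and Hgd to 0.35 for Arg2, the only gene above 0.

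Branched-chain amino acids and propionyl-CoA are handled by 7 of the genes, all with lower means and with a median difference of −1.45. Aldh6a1, methylmalonate semialdehyde dehydrogenase of valine breakdown, had levels of 4.55, 6.79, 7.28, 6.12 and 7.11 on the ischemic arrays, against 10.12, 9.27 and 8.42 on the normal arrays. It had the largest difference of these 7, −2.90 ± 0.66, and its groups did not overlap. Mccc1, a subunit of methylcrotonyl-CoA carboxylase in leucine breakdown, averaged 7.62 ± 0.65 (SD, n = 5) on the ischemic and 9.36 ± 0.75 (SD, n = 3) on the normal arrays, a difference of −1.74 ± 0.45, again with no overlap. Bckdhb, a subunit of the branched-chain ketoacid dehydrogenase, averaged 6.23 ± 0.83 (SD, n = 5) on the ischemic and 7.68 ± 0.25 (SD, n = 3) on the normal arrays. Its normal arrays were close together, the ischemic arrays lay below them and spread more widely, and the difference was −1.45 ± 0.46. Bckdha, the partner subunit, differed by −0.88 ± 0.42 with overlapping groups. Ivd, isovaleryl-CoA dehydrogenase, differed by −1.45 ± 0.66, Pcca of propionyl-CoA carboxylase by −1.40 ± 0.52 and its partner Pccb by −0.77 ± 0.53, each with overlap. Ischemic 1 had the lowest level of the ischemic group in 5 of the 7 (Aldh6a1, Mccc1, Bckdhb, Pcca and Pccb), and its mean over the 7 was 5.08, against 6.31 to 6.78 on the other ischemic arrays. Dimmer probe sets differed by −0.12 ± 0.40 for Mccc1 and 0.14 ± 0.28 for Pcca, where the brighter ones gave −1.74 and −1.40.

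Proline and hydroxyproline are oxidised by dehydrogenases that feed a shared step to glutamate or glyoxylate precursors. Aldh4a1, the enzyme of that shared step, averaged 4.81 ± 0.49 (SD, n = 5) on the ischemic and 6.62 ± 0.97 (SD, n = 3) on the normal arrays, a difference of −1.82 ± 0.45. Prodh, proline dehydrogenase, averaged 5.15 ± 0.30 (SD, n = 5) on the ischemic and 6.82 ± 1.20 (SD, n = 3) on the normal arrays, a difference of −1.67 ± 0.48. In both genes the groups did not overlap, though ischemic 3 in Aldh4a1 and ischemic 2 in Prodh lay just below normal 3. Prodh2, hydroxyproline dehydrogenase, was dim and differed by −0.65 ± 0.36, or by −0.20 without normal 1. Oat, ornithine aminotransferase, had levels of 7.72, 7.97, 9.13, 9.07 and 8.60 on the ischemic arrays, against 9.64, 8.16 and 8.59 on the normal arrays. Ischemic 3, ischemic 4 and, barely, ischemic 5 exceeded normal 2 and normal 3, and the difference of −0.30 ± 0.45 turned to 0.56 among arrays of low Xist signal.

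Among genes of glycine, serine, sarcosine and pipecolate the differences were uneven, with a median of −0.64 over 7 genes. Sardh, the mitochondrial sarcosine dehydrogenase, had levels of 4.44, 4.22, 5.23, 4.15 and 4.99 on the ischemic arrays, against 6.95, 8.07 and 5.64 on the normal arrays. Pipox, the peroxisomal oxidase of pipecolate and sarcosine, had levels of 6.67, 6.50, 5.72, 5.81 and 5.89 on the ischemic arrays, against 9.44, 7.50 and 7.39 on the normal arrays. In both the groups did not overlap, with differences of −2.28 ± 0.52 and −1.99 ± 0.49. Dmgdh, dimethylglycine dehydrogenase, which makes the sarcosine that Sardh uses, differed by −1.09 ± 0.51 with overlap, or by −0.52 without normal 1. Gldc, the decarboxylase of the glycine cleavage system, had levels of 7.26, 5.61, 5.04, 4.78 and 4.98 on the ischemic arrays, against 6.61, 5.48 and 5.01 on the normal arrays. Ischemic 1 was the highest of all 8 arrays for Gldc, and the difference was −0.17 ± 0.61. Gcsh, the carrier protein of the same system, differed by −0.64 ± 0.33. Shmt1, the cytosolic serine hydroxymethyltransferase, differed by −0.46 ± 0.32, or by −0.12 without normal 1, and its other 3 probe sets by −1.16, 0.12 and −1.03. Shmt2, the mitochondrial form, had levels of 6.78, 8.996, 8.07, 7.92 and 7.47 on the ischemic arrays, against 9.78, 6.16 and 7.73 on the normal arrays. It spread most over the normal arrays (SD 1.81, n = 3), and its difference of −0.04 ± 0.78 was 0.88 with low and −1.89 with high Xist signal.

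Genes of arginine, the urea cycle and creatine had groups that overlapped in all 4 cases, with a median difference of −0.78. Gatm, which makes the creatine precursor guanidinoacetate in the kidney, had levels of 7.50, 8.66, 8.87, 7.26 and 8.31 on the ischemic arrays, against 10.64, 8.97 and 8.74 on the normal arrays. Normal 1 was highest, ischemic 3 exceeded normal 3, and the difference was −1.33 ± 0.54. Ass1 and Asl, which make arginine from citrulline, differed by −1.05 ± 0.54 and −0.51 ± 0.39. Ass1 was dim, with intensities of 9.14, 14.29, 5.07, 43.51 and 6.31 on the ischemic arrays, against 100.46, 57.19 and 10.6 on the normal arrays. Asl was at 0.031 among the arrays of low Xist signal. Arg2, the mitochondrial arginase, was the only gene of the 36 with a positive difference, 0.35 ± 0.68, with levels of 6.30, 8.54, 9.20, 9.38 and 8.46 on the ischemic arrays, against 7.28, 8.24 and 8.54 on the normal arrays. Ischemic 1 was the lowest array for Arg2 and ischemic 4 the highest, and without normal 1 the difference was −0.016. Its other probe set differed by 0.58 ± 0.37.

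The normal arrays fell in much the same order for many of these genes, which is given as a description. Normal 1 was the highest normal array in 31 of the 36 genes, against 38.3% of all genes, and normal 3 the lowest in 31, against 33.4%. The mean level of the 36 genes was 5.85, 6.58, 6.51, 5.96 and 6.06 on the ischemic arrays, against 8.71, 7.78 and 7.04 on the normal arrays. Normal 3 was thus nearer to ischemic 2 than to normal 2. On the ischemic side the order was less shared. There ischemic 4 was lowest in 14 genes and highest in 6, against 18.6% and 19.1% of all genes. Ischemic 1 was lowest in 13 and highest in 7, against 32.2% and 30.5%. Ischemic 3 was highest in 13 and ischemic 2 in 10, against 19.2% and 17.6%.

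**Figure D3:**
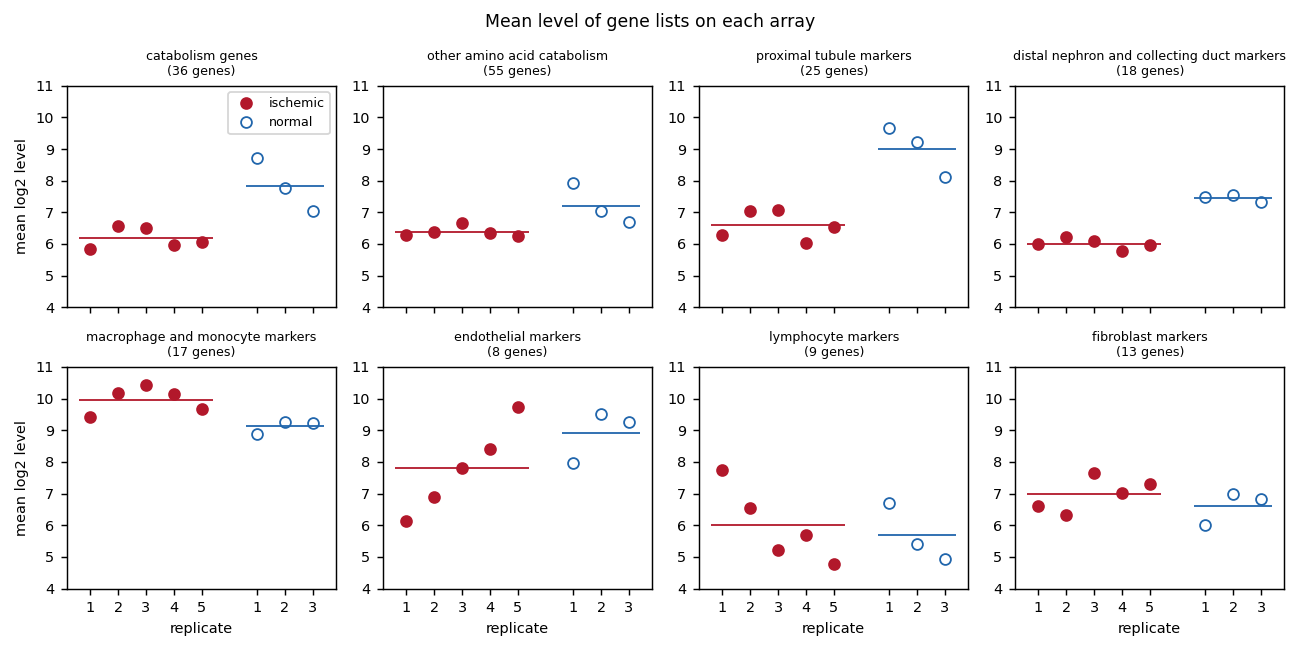
Mean log2 level of 8 gene lists on each array, with filled red points for the 5 ischemic and open blue points for the 3 normal arrays and a line at each group's mean. The catabolism genes, the other amino acid catabolism genes, the proximal tubule markers and the lymphocyte markers share the order normal 1, normal 2, normal 3 from high to low. Lymphocyte markers are highest on ischemic 1 (7.75).

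Markers of several cell types also had different levels in the 2 groups, though none passed limma over all genes. Of 25 measured proximal tubule markers, none of them among the 36 genes, 24 had a negative difference (45.2% of all genes), with a median of −2.75, and 19 had groups that did not overlap (3.44% of all genes). Their mean level ran from 6.02 to 7.06 on ischemic arrays, against 8.12 to 9.66 on normal arrays, and their summed intensity from 4586 to 5915, against 15557 to 37332. A sum gives most weight to bright markers. Aqp1, the brightest of the 25 over the 8 arrays, differed by −0.51 ± 0.45. Its levels were 10.14 to 11.69 on ischemic and 10.71 to 11.64 on normal arrays. The only one of these markers under an intensity of 16 on every ischemic array was Slc26a1. Hnf4a, one of these markers and named here because of the motif above, differed by −2.93 ± 0.59. Any part of Hnf4a in the differences of the catabolism genes was not tested. The distal nephron and collecting duct markers, 18 in all, had mean levels of 5.79 to 6.21 on ischemic and 7.33 to 7.54 on normal arrays, with summed intensities of 1134 to 1808 and 7139 to 7702. Of these 18, 17 had a negative difference (45.2% of all genes), with a median of −1.61, and 10 had groups that did not overlap (3.44% of all genes). Among them Aqp2 and Foxi1 were under 16 on every ischemic array. All 17 macrophage markers had positive differences, with mean levels of 9.42 to 10.45 on ischemic and 8.90 to 9.27 on normal arrays and summed intensities of 20031 to 37289 and 15790 to 22266. All 8 endothelial markers had negative differences, with mean levels of 6.14 to 9.74 on ischemic and 7.96 to 9.52 on normal arrays and overlapping groups. Summed intensities of these endothelial markers were 611 to 7610 and 2091 to 7598. The 9 lymphocyte markers had summed intensities of 123 to 2315 on ischemic and 170 to 1284 on normal arrays, with Nkg7 under 16 on all 8. The 5 podocyte markers had mean levels of 6.16 to 7.63 on ischemic and 6.37 to 7.55 on normal arrays, and 2 of the 5 were lower. These 2 were Podxl and Synpo, the brightest of the 5, at 6.41 to 11.35 and 6.925 to 10.87 on the ischemic arrays. On the normal arrays Nphs1 and Wt1 had intensities under 16, with levels of 4.79 to 4.88 and 4.18 to 4.54. Of 13 markers of fibroblasts, the cell type named in the series title, 8 were at or above the median brightness of all genes. Of the 13, 10 had positive differences, and Lum was under 16 on all 8 arrays. Summed intensities of the 13 were 4103 to 9736 on ischemic and 2617 to 7338 on normal arrays. Vim was the brightest of them on every array and so weighs most in these sums. Its levels were 11.66 to 12.45 on ischemic and 10.66 to 12.41 on normal arrays. The part of any of these cell types in the differences of the catabolism genes was not tested.

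Of 60 other genes of amino acid breakdown listed apart from the 36, 55 were measured. A negative difference was seen in 48 of them, against 45.2% of all genes. Their median was −0.63, and 13 had groups that did not overlap, all lower on ischemic arrays (3.44% of all genes). None passed limma over all genes. At an unadjusted p under 0.05, 19 were lower and 0 higher, against 913 lower (5.02%) and 384 higher of all genes. The median was −0.32 without normal 1 and −0.27 with low Xist signal. The lowest were Hao2, a peroxisomal hydroxy acid oxidase, at −3.17 ± 0.62 (SE), and Aadat, an aminotransferase of lysine and kynurenine, at −2.53 ± 0.71. Next came Ddc, aromatic amino acid decarboxylase, at −2.48 ± 0.70, and Uroc1, urocanase of histidine breakdown, at −2.26 ± 0.44. Ddc had intensities under 16 on every ischemic array, and its levels were 9.18, 6.76 and 5.45 on the normal arrays. The highest were Bhmt, betaine-homocysteine methyltransferase, at 0.72 ± 0.67, and Hal, histidine ammonia-lyase, at 0.45 ± 0.57. The groups of Bhmt and Hal overlapped.

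**Figure D4:**
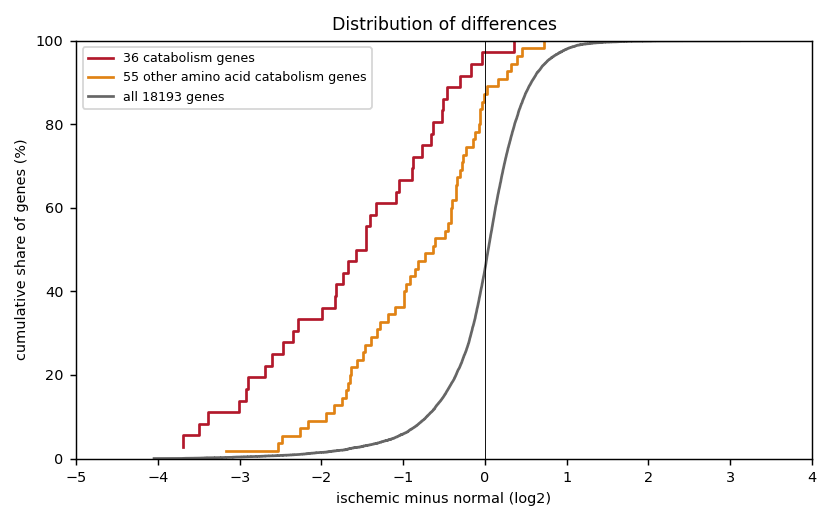
Cumulative share of genes (percent) by ischemic minus normal difference (log2) for the 36 catabolism genes, the 55 other amino acid breakdown genes and all 18193 genes. The medians are −1.52, −0.63 and 0.041.

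The differences depended on which arrays entered. Among arrays of low Xist signal, 32 of the 36 genes were lower, with a median of −1.08, and the higher ones were Oat, Shmt2, Asl and Arg2. Groups did not overlap in 20 of the 36 there, against 10.3% of all genes on the lower side. Among arrays of high Xist signal, 35 were lower, with a median of −2.31, and 33 did not overlap, against 32.9% of all genes. No gene passed limma with low Xist signal, with 973 genes at an unadjusted p under 0.05, and the arrays of high signal, with 1 normal array, are given as values only. Acy3, Aass, Ivd and Gldc had differences at least as low with low as with high Xist signal. For Sugct, Keg1 and Nat8 the low Xist values were −3.10, −3.54 and −2.87. Without normal 3, the lowest normal array for most of these genes, 27 of the 36 did not overlap (7.87% of all genes). Leaving out normal 1, the highest normal array for most of these genes, made the difference of 17 of the 36 over 1.5 times smaller or turned its sign, more genes than leaving out any other array did. The sign turned in Arg2 and in Fah, Oat, Gldc and Shmt2, which were then at 0.016, 0.12, 0.29 and 0.90. Miox was then at −1.78, Pipox at −1.33, Gcdh at −1.05, Gatm at −0.73 and Acy1 at −0.57. Ass1 was at −0.57, Bckdha at −0.46, Gcsh at −0.30 and Asl at −0.14. Without ischemic 1, Pccb was at −0.37. Of 15 further probe sets for 10 of the 36 genes, 13 had the sign of the probe set used, the exceptions being those of Pcca and Shmt1 given above.

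**Figure D5:**
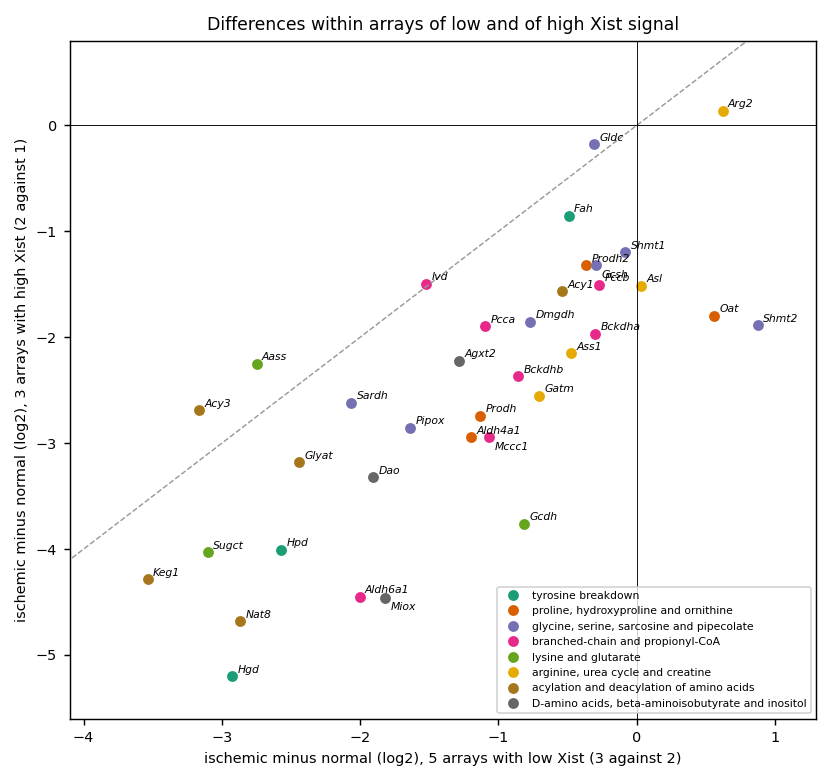
Ischemic minus normal difference (log2) of each of the 36 genes within the 5 arrays of low Xist signal (horizontal, 3 ischemic against 2 normal) and within the 3 of high signal (vertical, 2 against 1), coloured by pathway, with equality dashed. Most genes lie below the dashed line, and Keg1, Sugct, Acy3, Hgd and Nat8 are low on both axes.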

How the data were processed

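Probe set intensities of 8 Affymetrix mouse arrays, on a linear scale, were deposited by the authors in a single table. RNA was amplified with NuGEN WT-Ovation Pico, per the labels' protocols. How the authors summarised and scaled them is not given in the sources used here. Intensities were taken as log2(value + 16), and all probe sets but 64 controls were quantile normalized. Probe sets with 1 symbol (34945 of 45101) gave 18193 genes, each by its brightest probe set over the 8 arrays, with no filter on brightness. Groups came from the sample titles. The comparison used limma 3.58.1 (R 4.3.3) and Benjamini-Hochberg adjusted p-values across every gene, a step first tried on simulated data. Array quality used an exact permutation test.

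The genes, lists and tests were chosen with earlier results of these data known. All measured members were named, with the 4 lowest and 2 highest of the other breakdown genes. Gstz1, Tat, Dhtkd1 and Aldh7a1 were added after their values were seen. Alternatives covered the pseudocount, scaling, probe sets, a brightness filter, variance models, array weights, a replicate block, each array left out and Xist signal. Background correction and slide could not be varied, as scanner files were not used here. Promoters came from RefSeq (GRCm38.p6). Python 3.11.15 and matplotlib 3.10.9 drew the figures.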

Additional observations from a re-analysis of the deposited data

Results flagged for a closer look

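Among 109 sets of 5 ischemic arrays (36 catabolism genes, 55 other breakdown genes, 17 list means and S100a4), 9 had an array far from the other 4 by Dixon's criterion, where chance alone marks about 5%. Ischemic 1 was the far array in 6 of them. It was low in the mean of the branched-chain genes (5.08, nearest 6.31) and in Csad, an enzyme of taurine synthesis (4.50, nearest 6.87). It was high in Bhmt (8.41, nearest 5.91), in Cbs, cystathionine beta-synthase (9.16, nearest 6.61), in Aldh7a1, an aldehyde dehydrogenase of lysine breakdown (9.60, nearest 7.13), and in Bcat1, a branched-chain aminotransferase (6.43, nearest 5.86). Ischemic 2 was high in Hpd (6.44, nearest 4.75) and in Abat, GABA aminotransferase (7.92, nearest 5.47). Ischemic 4 was high in Otc, ornithine transcarbamylase (4.70, nearest 4.33), which is close to the lowest levels on the arrays.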

How the results depend on the processing

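No gene of all genes passed in the main setting. The count was 1 with a pseudocount of 1, 2 with the mean of all probe sets, 3 at an adjusted p of 0.1, 5 with array weights, 15 above the 40th percentile of brightness, 31 with limma's trend, 257 after centring each array on its ribosomal protein genes, which called 14 of the 36, and 0 to 113 with an array left out. Without 1 array, 17 to 27 of the 36 genes had groups apart, against 4.16% to 7.87% of all genes on the lower side. With high Xist signal 33 did, against 32.9% of all genes. The median of the 36 was −1.01 with a pseudocount of 64 and −2.31 with high Xist signal, and that of the other breakdown genes −1.74 with high Xist signal and −1.05 with ribosomal centring, which moved the median of all genes to −0.22. With the replicate block (replicates 1 to 3) the median of the 36 was −1.54, as without it on the same arrays, and no gene passed. Deviations of same-numbered arrays correlated at 0.16, −0.088 and 0.10, so the numbers were not taken as pairs. Signs held for 30 of the 36 genes in every setting. Without 1 array Fah ran from −0.94 to 0.016, Oat from −0.62 to 0.12, Gldc from −0.60 to 0.29, Shmt2 from −0.91 to 0.90 and Arg2 from −0.016 to 0.87. Oat was at 0.046 with array weights and 0.56 with low Xist signal. Gldc was at 0.27 with the block or those 6 arrays alone. Shmt2 was at 0.0052 with a pseudocount of 1, 0.25 with array weights, 0.061 with the block or those 6 arrays alone and 0.88 with low Xist signal. Asl was at 0.031 with low Xist signal. Arg2 was at −0.0088 with the block or those 6 arrays alone. The causes were not tested, and 3 normal arrays limit every value.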

Other observations

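Other branches of amino acid breakdown, picked from the same list after their values were seen, differed among themselves. Of the tryptophan pathway, Haao differed by −1.64 ± 0.49 (SE) with groups apart, while Kynu, at −0.064 ± 0.43, and Kmo, at −0.45 ± 0.48, did not separate the groups. Qprt, which leads on to NAD, had levels of 4.65, 4.96, 4.46, 4.79 and 4.39 on the ischemic arrays, against 8.94, 4.78 and 4.69 on the normal arrays. Normal 1 alone was high there. Cdo1, cysteine dioxygenase, at −1.66 ± 0.49, and Csad, at −1.57 ± 0.64, both of taurine synthesis, had groups apart. Arg1, the cytosolic arginase, had levels of 6.005, 5.47, 10.46, 7.02 and 6.37 on the ischemic arrays, against 5.44, 6.74 and 7.82 on the normal arrays, with ischemic 3 far above the rest and a difference of 0.40 ± 1.09. None of these genes passed limma over all genes.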
